A study of Homo sapiens with 6 samples.

Results

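The genes described here are 10 human collagen genes, COL1A1, COL4A1, COL4A2, COL5A1, COL5A2, COL6A1, COL6A2, COL7A1, COL12A1 and COL17A1, chosen by symbol from the 60605 genes of a table of raw read counts. The counts came from the human bile duct cancer (cholangiocarcinoma) line HuCCT-1, a cell line in wide use. It was grown for 4 days with JNJ-64619178 at 6 nM (JNJ, 3 libraries) or with DMSO, the solvent, at equal volume (DMSO, 3 libraries). JNJ-64619178 inhibits PRMT5, an enzyme that places symmetric methyl marks on arginine, and the study asked how that inhibition alters gene expression in this cancer. All libraries came from 1 cell line, and no label states that replicates were separate cultures, so p-values measure only how far these samples spread, which may be technical variation.

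Collagens are secreted or membrane-bound proteins built from chains that wind into a triple helix. Fibrillar types form the fibrils of connective tissue, type IV forms the net of basement membranes, type VI forms beaded filaments beside it, and types VII and XVII fasten epithelial cells to the matrix below. In bile duct cancer the dense collagen around the tumour is laid down mainly by fibroblasts, while the cancer cells themselves make some basement membrane and anchoring collagens. In the endoplasmic reticulum the chains are hydroxylated, folded with the help of dedicated chaperones and exported, and outside the cell they are trimmed and cross-linked.

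Library totals ranged from 23931991 to 28224911 counts with JNJ and from 28133746 to 30691914 counts with DMSO. Replicates differed by more than sampling noise, with a chi-square per degree of freedom of 5.12 to 5.64 between JNJ libraries and 2.56 to 8.09 between DMSO libraries, where the 2 values above 6 both involved DMSO replicate 3. The biliary label was set against 9 marker genes, of which 8 passed the filter on low counts. Their summed level was 4571 to 4838 CPM (counts scaled to equal library size) with JNJ and 5645 to 5919 CPM with DMSO, and KRT7 (-0.36), KRT18 (-0.29), KRT8 (-0.22) and KRT19 (-0.15) fell on the log2 scale. SPP1, the marker that did not pass, had 2 counts with JNJ and 6 with DMSO. A list of 10 fibroblast markers summed to 60.2 to 65.2 CPM with JNJ and 55.6 to 62.2 CPM with DMSO, of which FBLN1 alone gave 58.7 ± 2.04 and 57.1 ± 4.16 CPM (SD, n = 3 each). ACTA2, the single called gene of that list, rose at a low level, 2.63 CPM with JNJ against 1.78 CPM with DMSO on average (log2 fold change 0.56, edgeR adjusted p = 0.0248), and DESeq2 did not call it. Counts of the others were low in both groups. THY1 had 0 counts in all JNJ libraries together and 1 in the DMSO libraries, COL3A1 had 1 and 0, COL1A2 had 1 and 2, PDGFRA had 3 and 10, PDGFRB had 27 and 12, DCN had 24 and 9, FAP had 27 and 27, and LUM had 32 and 29. The part of these markers in the collagen changes was not tested. Endothelial markers (5 genes) summed to at most 1.54 CPM with JNJ and 1.09 CPM with DMSO, and leukocyte markers (5 genes) to at most 0.630 and 0.335 CPM. In RNA from whole cultures, a change in the number of expressing cells and a change in the RNA of each cell cannot be told apart.

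Of the 10 collagen genes, 7 were higher with JNJ, none was lower, COL12A1 and COL4A1 did not pass the test, and COL5A1 had too few counts to be tested. The type VI chain gene COL6A1 rose 2.35-fold and the anchoring fibril gene COL7A1 rose 2.07-fold, while its partner at the epithelial base, COL17A1, rose 1.32-fold. COL4A2 (1.89-fold), COL1A1 (1.72-fold), COL5A2 (1.65-fold) and COL6A2 (1.47-fold) lay between. Together the 10 genes took 0.328%, 0.333% and 0.309% of all counts in the 3 JNJ libraries, against 0.187%, 0.185% and 0.188% in the 3 DMSO libraries. COL6A1, COL6A2, COL7A1 and COL17A1 supplied 95.2% to 95.8% of those reads with JNJ and 93.9% to 94.5% with DMSO. edgeR's quasi-likelihood test covered 17371 genes, of which 37.1% passed at an adjusted p under 0.05, 20.0% as higher and 17.1% as lower. In the 7 called collagen genes every JNJ library lay above every DMSO library, as it did in 24.7% of all tested genes, with the reverse in 22.2%. COL6A1 and COL7A1 rose at least 2-fold, as did 2.12% of all tested genes. By edgeR no member fell, also at an unadjusted p under 0.05, and DESeq2 called 7 higher and 0 lower.

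**Figure D1:**
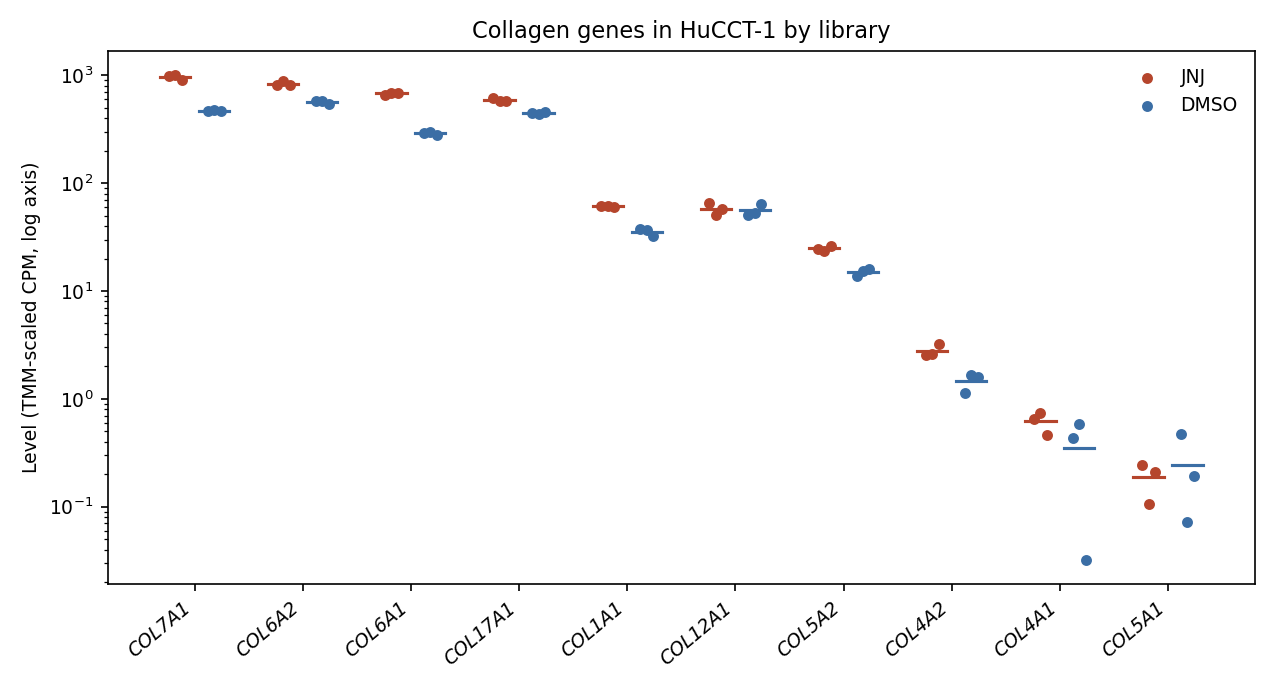
Level of each collagen gene in each library, in CPM with TMM-scaled library sizes on a log axis, with JNJ (red) left of DMSO (blue), 3 points per group and a bar at the mean. The groups are separate in 7 genes and overlap in COL12A1, COL4A1 and COL5A1, and the single low DMSO point of COL4A1 rests on 1 read.

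The stretches of DNA just before the starts of 5 genes are shown because they contrast the largest riser with a known start in the sequence table (COL7A1), a member of the type VI pair (COL6A2), a small riser of the epithelial base (COL17A1) and the type IV pair, which starts from opposite strands of the same short stretch. They are RefSeq sequences on GRCh38.p14, 5′ to 3′ in the direction of the gene. Windows were found for 7 of the 10 members, and those of COL7A1, COL6A2 and COL17A1 are the 250 bases before the start. Capitals mark, on either strand, the GC box GGGCGG, the TATA box TATAAA and the CCAAT box CCAAT.
COL7A1, chr3:48595330-48595579, minus strand: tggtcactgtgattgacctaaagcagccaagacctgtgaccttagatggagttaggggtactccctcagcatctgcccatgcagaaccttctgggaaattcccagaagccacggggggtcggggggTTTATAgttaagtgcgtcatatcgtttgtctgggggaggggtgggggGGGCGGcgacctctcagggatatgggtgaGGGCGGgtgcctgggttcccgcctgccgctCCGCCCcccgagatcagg
COL6A2, chr21:46097862-46098111, plus strand: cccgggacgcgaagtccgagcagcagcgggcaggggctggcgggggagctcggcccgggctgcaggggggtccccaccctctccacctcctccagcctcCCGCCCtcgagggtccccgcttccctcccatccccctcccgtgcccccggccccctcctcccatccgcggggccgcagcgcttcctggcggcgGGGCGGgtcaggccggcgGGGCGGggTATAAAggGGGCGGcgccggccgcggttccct
COL17A1, chr10:104085881-104086130, minus strand: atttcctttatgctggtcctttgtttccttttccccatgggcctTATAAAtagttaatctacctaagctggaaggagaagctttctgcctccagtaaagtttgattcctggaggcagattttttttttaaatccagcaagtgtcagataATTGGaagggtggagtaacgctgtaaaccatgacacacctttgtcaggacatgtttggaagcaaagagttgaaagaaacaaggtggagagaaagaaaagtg
COL4A1 to COL4A2, chr13:110307158-110307283, plus strand: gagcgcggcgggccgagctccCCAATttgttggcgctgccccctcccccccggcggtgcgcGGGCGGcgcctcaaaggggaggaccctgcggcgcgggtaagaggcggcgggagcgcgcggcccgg

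The windows differ widely in base composition. Guanine and cytosine made up 60.8% of the COL7A1 window, 79.6% of that of COL6A2 and 40.4% of that of COL17A1, against a median of 57.6% over 27305 gene starts. The GC box had 3 matches before COL7A1 and 4 before COL6A2 but none before COL17A1, and 41.6% of all windows held at least 1. The TATA box had 1 match in each of these 3 windows, against 11.3% of all windows with a match. The windows of the other members found, COL4A1, COL4A2, COL5A1 and COL12A1, held 0 matches each. The 126 bases between the COL4A1 and COL4A2 starts were 80.2% guanine and cytosine and held 1 GC box and 1 CCAAT box, which occurred in 32.9% of all windows of 250 bases. A match describes the letters only.

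COL1A1 and COL5A2 are chains of fibrillar collagens. COL1A1 (ENSG00000108821), encodes the main chain of type I collagen, the chief protein of tendon and bone. Its span is 50183289 to 50201632 on chromosome 17; positions of genes here are those of GENCODE 29 (GRCh38). It was counted at 61.9, 60.8 and 60.2 CPM with JNJ, against 37.3, 36.9 and 32.2 CPM with DMSO. The lowest JNJ library stood well above the highest DMSO library, and the JNJ libraries were closely grouped. The log2 fold change was 0.78 with a standard error (SE) of 0.06 (edgeR adjusted p = 1.38e-10). COL1A2, which encodes the chain that normally joins it in type I collagen, had 0, 1 and 0 counts with JNJ and 0, 0 and 2 with DMSO, too few for any fold. These cells thus held COL1A1 messages almost without those of its partner in both groups.

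COL5A2 (ENSG00000204262) and COL5A1 (ENSG00000130635) encode the chains of type V collagen, which is buried in type I fibrils and sets their width. COL5A2, on chromosome 2 at 189031896 to 189225312, was counted at 24.8, 23.6 and 26.2 CPM with JNJ and at 13.8, 15.4 and 16.1 CPM with DMSO. The groups did not overlap, and the log2 fold change was 0.72 (SE 0.08, edgeR adjusted p = 5.61e-08). COL5A1 had only 6, 3 and 5 counts with JNJ and 14, 2 and 6 counts with DMSO, and it did not pass the filter on low counts. Its groups overlapped, and a difference was not detectable at this depth. The third type V chain gene, COL5A3, had 9 counts in the JNJ libraries together and 9 in the DMSO libraries, so COL5A2 too was present almost without its partner chains. The minor fibrillar genes outside the 10 included COL27A1, a cartilage collagen, which rose (log2 fold change 0.72, SE 0.09, edgeR adjusted p = 6.33e-07) from a low level, 14.4 ± 0.16 CPM with JNJ against 8.75 ± 0.43 CPM with DMSO (SD, n = 3 each).

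COL4A1 (ENSG00000187498) and COL4A2 (ENSG00000134871) encode the chains of the most widespread type IV collagen, the net of nearly all basement membranes, and lie head to head on chromosome 13. Both were scarce here. COL4A2, at 110305812 to 110513209, was counted at 2.56, 2.59 and 3.22 CPM with JNJ, against 1.14, 1.67 and 1.61 CPM with DMSO. No DMSO library reached the lowest JNJ library, and the log2 fold change was 0.92 (SE 0.21, edgeR adjusted p = 0.0013). COL4A1, at 110148963 to 110307233, had 16, 21 and 11 counts with JNJ and 13, 16 and 1 with DMSO. Its groups overlapped, since DMSO replicate 2 (0.580 CPM) lay within the range of the JNJ libraries (0.466 to 0.735 CPM), while DMSO replicate 1 (0.436 CPM) lay just below it and DMSO replicate 3 stood apart at 1 read. The log2 fold change of 0.86 had a 95% interval of -0.19 to 1.90 (edgeR adjusted p = 0.196), and without DMSO replicate 3 it was 0.29. The annotated spans of both genes overlap at their starts without sharing exonic bases, and whether the counting used strand is unknown.

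The other type IV chain genes gave the larger part of this family in the line. Per kilobase of exon, COL4A5 stood at 31.0 ± 1.19 CPM with JNJ and 27.4 ± 1.27 CPM with DMSO, far above COL4A2 at 0.145 ± 0.019 and 0.076 ± 0.015 (SD, n = 3 each). COL4A5 encodes a chain that joins the products of COL4A3 and COL4A4 in the kidney filter and that of COL4A6 in other epithelia. COL4A3 rose by 0.89 on the log2 scale (SE 0.07, edgeR adjusted p = 1.60e-10), with 63.4, 52.1 and 57.6 CPM with JNJ against 28.7, 31.8 and 32.6 CPM with DMSO. COL4A6 rose by 0.54 (SE 0.07, edgeR adjusted p = 3.61e-06) and COL4A5 by 0.18 (SE 0.05, edgeR adjusted p = 0.00413). COL4A5 did not pass without DMSO replicate 1 (edgeR adjusted p = 0.0535). COL4A4, which lies beside COL4A3, had a log2 fold change of 0.14 (95% interval -0.01 to 0.28, edgeR adjusted p = 0.13), and passed without JNJ replicate 2 (0.23, edgeR adjusted p = 0.00563).

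COL6A1 (ENSG00000142156) and COL6A2 (ENSG00000142173) encode chains of type VI collagen and lie in the same orientation on chromosome 21, at 45981737 to 46005050 and 46098097 to 46132849, with 93047 bases between them. COL6A1 was counted at 663, 688 and 690.3 CPM with JNJ, against 295, 296 and 278 CPM with DMSO. Every JNJ library held more than 2 times the level of any DMSO library. Its log2 fold change of 1.23 (SE 0.04, edgeR adjusted p = 7.20e-16) was the largest among the members. COL6A2 was counted at 818, 876 and 811 CPM with JNJ and at 582, 572 and 547 CPM with DMSO. These groups were also apart, at a smaller log2 fold change of 0.56 (SE 0.05, edgeR adjusted p = 8.92e-10).

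The chains of a type VI molecule are assembled in fixed proportion, so the ratio of the messages was examined within each library, where scaling between libraries has no part. COL6A1 had 0.811, 0.785 and 0.851 reads per COL6A2 read with JNJ, against 0.507, 0.517 and 0.508 with DMSO. The lowest JNJ ratio was well above the highest DMSO ratio, and the DMSO ratios were nearly identical. The ratio was 1.597 times as high with JNJ, a difference of 0.68 in mean log2 ratio (SE 0.04). An exact two-sided permutation test over the libraries gave p = 0.1, the smallest that 3 against 3 allows, and 0.2 after adjustment over the 2 pairs compared. For COL4A1 over COL4A2 the ratios were 0.260, 0.289 and 0.150 with JNJ and 0.391, 0.355 and 0.0297 with DMSO. Here the groups overlapped, the mean log2 ratio differed by 0.48 (SE 1.25, exact two-sided permutation p = 1 before and after adjustment), and the plain means ran the other way, 0.233 with JNJ and 0.259 with DMSO. The remaining planned pairs, of type V and type I chains, had a partner with too few counts.

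**Figure D2:**
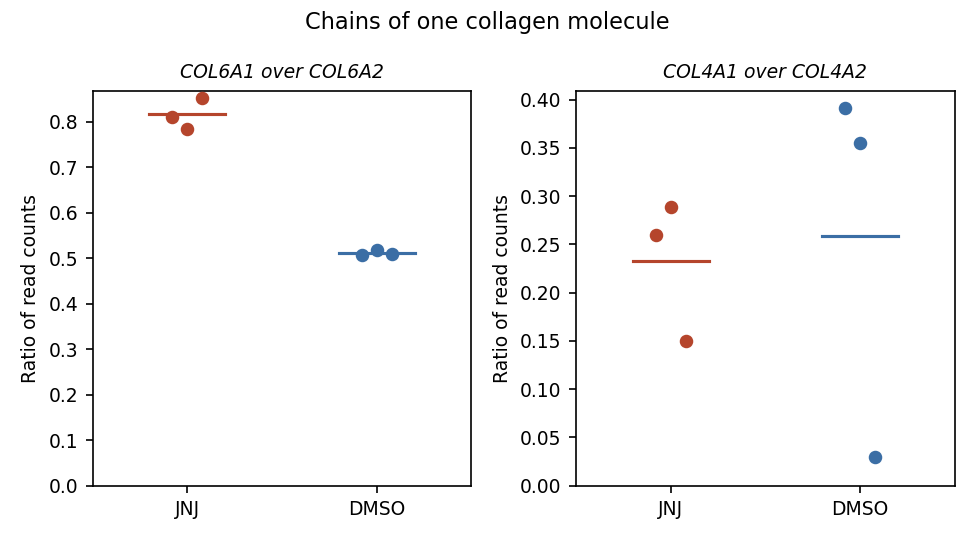
Ratio of read counts of COL6A1 over COL6A2 (left) and of COL4A1 over COL4A2 (right) in each library, JNJ left of DMSO, with bars at the group means and axes from 0. The type VI ratios lie between 0.785 and 0.851 with JNJ and between 0.507 and 0.517 with DMSO, while the type IV ratios of the groups overlap.

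The chain that completes the common type VI molecule comes from COL6A3. It was nearly missing, with 29, 40 and 31 counts in the JNJ libraries and 49, 15 and 41 in the DMSO libraries. Per kilobase of exon it stood at 0.066 ± 0.006 CPM with JNJ and 0.059 ± 0.029 CPM with DMSO, against 127 ± 2.81 and 54.2 ± 1.88 for COL6A1 (SD, n = 3 each). Its groups overlapped and its log2 fold change was 0.14 (95% interval -0.50 to 0.78, edgeR adjusted p = 0.756). Of the alternatives to this chain, COL6A5 had 1 count with JNJ and 0 with DMSO, and COL6A6 had 2 and 0. The rise of COL6A1 and COL6A2 was therefore measured in cells with very few messages for any chain that could complete the molecule.

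COL7A1 (ENSG00000114270), on chromosome 3 at 48564073 to 48595267, encodes the collagen of anchoring fibrils, which tie the basement membrane of skin and other stratified linings to the tissue below. It was counted at 993, 1006 and 901 CPM with JNJ, against 466, 474 and 464 CPM with DMSO. The lowest JNJ library held nearly double the highest DMSO library, and JNJ replicate 3 was the lowest of its group. The log2 fold change was 1.05 (SE 0.05, edgeR adjusted p = 3.35e-14). COL17A1 (ENSG00000065618), on chromosome 10 at 104031286 to 104085957, encodes a collagen that crosses the cell membrane in hemidesmosomes, the rivets that hold epithelial cells to their base. It was counted at 610.4, 578 and 581 CPM with JNJ and at 450.5, 438 and 452 CPM with DMSO. The groups did not overlap, and the rise of 0.40 on the log2 scale (SE 0.04, edgeR adjusted p = 8.63e-08) was the smallest of the 7 calls.

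COL12A1 (ENSG00000111799), on chromosome 6 at 75084326 to 75206051, encodes a collagen that decorates the surface of type I fibrils. It was counted at 65.6, 50.7 and 57.7 CPM with JNJ, against 51.2, 53.1 and 63.5 CPM with DMSO. The groups overlapped fully, with a high library in each, JNJ replicate 1 and DMSO replicate 3. Its log2 fold change was 0.05 (95% interval -0.11 to 0.21, edgeR adjusted p = 0.655), and its sign turned to -0.01 with upper-quartile scaling.

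Levels of different genes were compared per kilobase of exon. With JNJ the order ran from COL6A2 (155 ± 6.68 CPM per kilobase) through COL6A1 (127 ± 2.81), COL7A1 (87.3 ± 5.19) and COL17A1 (83.5 ± 2.50) to COL1A1 (6.21 ± 0.09), COL12A1 (4.65 ± 0.60) and COL5A2 (3.34 ± 0.18; SD, n = 3 throughout). COL7A1 and COL17A1 were not separated there, since their ranges over the libraries overlapped. With DMSO the order began with COL6A2 (105 ± 3.33), COL17A1 (63.3 ± 1.08), COL6A1 (54.2 ± 1.88) and COL7A1 (42.3 ± 0.51), all with separate ranges. COL17A1 was thus below COL6A1 with JNJ and above it with DMSO. COL1A1 (3.61 ± 0.29 with DMSO) and COL12A1 (4.48 ± 0.53 with DMSO) also changed places, but with the length of the longest transcript COL1A1 was above COL12A1 in both groups, at 9.06 and 4.95 CPM per kilobase with JNJ and at 5.27 and 4.77 with DMSO. COL4A2, COL4A1 and COL5A1 closed the order in both groups, and COL4A1 and COL5A1 were not separated with DMSO. With that length in place of all exons, COL6A1, COL6A2 and COL1A1 were among the genes whose levels moved by more than the spread between replicates.

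The other 34 collagen genes gave a mixed background to the 10. Of these, 16 were tested, 8 rose and 1 fell, with a median log2 fold change of 0.30, against 20.0% higher, 17.1% lower and a median of 0.001 over all tested genes. Beside COL4A3, COL4A5, COL4A6 and COL27A1, the risers were COL16A1, COL8A1, COL20A1 and COL9A2. COL16A1, which like COL12A1 associates with fibrils, rose to 195 ± 9.70 CPM with JNJ, against 120.4 ± 8.90 CPM with DMSO (SD, n = 3 each), at a log2 fold change of 0.70 (SE 0.05, edgeR adjusted p = 1.78e-10). COL8A1, a collagen of short-chain networks, rose by 0.40 (edgeR adjusted p = 1.72e-06), COL9A2, a cartilage collagen, by 0.35 (edgeR adjusted p = 2.40e-04) and COL20A1 by 1.13 from about 1 CPM (edgeR adjusted p = 1.38e-04). COL13A1, a collagen anchored in the cell membrane like COL17A1, was the 1 that fell, to 20.9, 22.0 and 23.0 CPM with JNJ against 34.2, 39.3 and 30.4 CPM with DMSO (log2 fold change -0.65, SE 0.08, edgeR adjusted p = 3.47e-07). For COL13A1 too the groups were separate, in the opposite direction to those of COL17A1.

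The other 7 tested collagen genes did not pass. COL18A1, a basement membrane collagen whose end fragment is endostatin, was at 129 ± 1.32 CPM with JNJ and 134 ± 2.32 CPM with DMSO (log2 fold change -0.05, 95% interval -0.15 to 0.04, edgeR adjusted p = 0.355; SD, n = 3 each). With upper-quartile scaling COL18A1 passed as lower (-0.11, adjusted p = 0.043). COL11A2 (0.24), COL9A3 (0.20), COL24A1 (0.18), COL28A1 (0.50), COL4A4 (0.14) and COL6A3 (0.14) had positive log2 fold changes whose intervals included 0. In the whole family, 15 of 25 tested genes (60.0%) rose and 1 (4.00%) fell, against 20.0% and 17.1% of all tested genes.

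**Figure D3:**
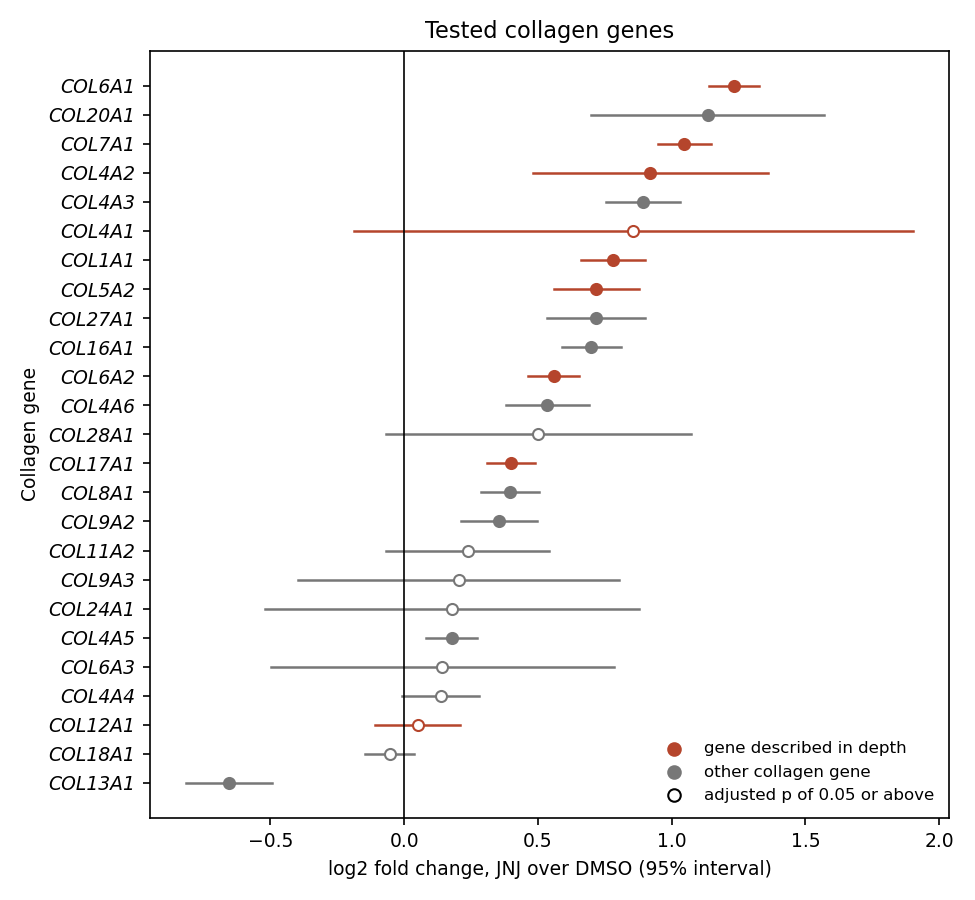
log2 fold change of JNJ over DMSO with its 95% interval for the 25 tested collagen genes, the 9 tested members in red and the 16 others in grey, with open points where the adjusted p was 0.05 or above. COL6A1 is at the top (1.23) and COL13A1 at the bottom (-0.65), and the interval of COL4A1 includes 0.

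Collagen genes are split into unusually many exons, and the members ranged from 28 exons in the longest transcript of COL6A2 to 118 in that of COL7A1. Among 786 tested protein-coding genes within that range of exon numbers, 46.3% rose and 7.89% fell, with a median log2 fold change of 0.19, against 24.0% and 16.8% of all 13063 tested protein-coding genes and a median of 0.02. The part of exon number in the collagen changes was not tested. Of 11 other tested protein-coding genes that flank the 7 risers, 3 rose, 4 fell and 4 did not pass, where 20.0% of all tested genes rose and 17.1% fell. UCN2, which encodes the hormone urocortin-2, lies 300 bases beyond the end of COL7A1 on the same strand and was counted at 14.9, 15.4 and 15.2 CPM with JNJ, against 7.44, 8.37 and 6.20 CPM with DMSO. Its log2 fold change of 1.05 (SE 0.10, edgeR adjusted p = 1.27e-08) equalled that of COL7A1 to the second decimal. Whether reads of COL7A1 ran on into UCN2 was not tested. On the other side of COL7A1, UQCRC1, a subunit of the respiratory chain, fell by 0.24 on the log2 scale (edgeR adjusted p = 4.06e-04). UCN2 and UQCRC1 were singled out after their values were seen.

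For each riser the genes with the most similar profile were sought among 9968 or 9969 genes whose log2 CPM averaged 3 or more, by the root mean square difference of centred log2 CPM over the 6 libraries. COL6A1 was most like ARAP3 (0.020), TMEM94 (0.029) and ANKZF1 (0.031), and COL6A2 was most like APBA3 (0.021), PHF1 (0.025) and IRAK2 (0.028). The profile of COL7A1 was nearest to EPS8L2 (0.053), SLC25A25-AS1 (0.063) and KRIT1 (0.064), that of COL17A1 to ARMC9 (0.015), BIRC3 (0.017) and LRPPRC (0.017). COL1A1 was nearest to SMOC1 (0.025), SLC26A6 (0.035) and RAPGEF3 (0.036), and COL5A2 to ZNF182 (0.044) and LINC00641 (0.045). COL4A2, with few reads, had larger distances to HHIP (0.124), DZIP3 (0.130) and CFB (0.139). The genes listed had log2 fold changes near that of the riser, so this likeness largely restates the fold change. ARAP3, for instance, had 1.25 against 1.23 for COL6A1, and APBA3 had 0.58 against 0.56 for COL6A2. Whether these genes share more than that with the risers was not tested. Partner chains were not nearest to each other. For the type VI pair this distance restates the unequal log2 fold changes already given (1.23 for COL6A1 and 0.56 for COL6A2), so the places are no separate evidence. COL6A2 stood at place 441 of 9968 for COL6A1, and COL6A1 at place 6852 of 9968 for COL6A2. COL4A2 stood at place 1836 of 9970 for COL4A1, and COL4A1 at place 9945 of 9970 for COL4A2. Both genes lay below the level cut, and COL4A1 had 1 read in DMSO replicate 3, so their places say little.

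The genes that fold, export, trim, bind and cut collagen were read from 7 lists, the other collagen genes being the first. Of 18 tested genes of folding and modification, 4 (22.2%) rose and 4 fell, with a median of -0.03, close to the 20.0% higher and 17.1% lower of all tested genes. SERPINH1, the collagen-specific chaperone also called HSP47, rose to 74.2, 79.3 and 80.9 CPM with JNJ, against 51.1, 52.7 and 54.7 CPM with DMSO (log2 fold change 0.56, SE 0.05, edgeR adjusted p = 4.69e-09). FKBP10, a prolyl isomerase that assists collagen folding, rose by 0.29 (edgeR adjusted p = 6.98e-06), while its relative FKBP14 fell by 0.29 (edgeR adjusted p = 2.12e-04) and TMEM38B, a channel of the endoplasmic reticulum, fell by 0.41 (edgeR adjusted p = 6.61e-05). The genes of prolyl 4-hydroxylase, the enzyme that stabilises the helix, were at nearly the same level in both groups, with log2 fold changes of -0.002 for P4HA1, -0.04 for P4HA2 and 0.02 for P4HB, whose 95% intervals lay within -0.14 and 0.12. They were singled out after their values were seen, as were the lysyl hydroxylase genes PLOD3 (0.24, edgeR adjusted p = 5.24e-04), PLOD1 (-0.27, edgeR adjusted p = 7.37e-04) and PLOD2 (-0.16, edgeR adjusted p = 0.00817), which moved in different directions.

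Of 8 tested genes of export from the endoplasmic reticulum, 2 (25.0%) rose and 2 fell, with a median of -0.07, where all tested genes gave 20.0% and 17.1%. CREB3L1, a transcription factor of the secretory pathway known to act on COL1A1 in bone, rose by 0.42 (edgeR adjusted p = 4.61e-06) and MIA2, a part of the exit-site machinery for bulky cargo, by 0.28 (edgeR adjusted p = 1.23e-04). SEC23A, a coat subunit, fell by 0.26 (edgeR adjusted p = 0.00212), and PREB, which activates the coat GTPase, fell by 0.21 (edgeR adjusted p = 0.0219). The call of PREB was lost without DMSO replicate 3 (edgeR adjusted p = 0.125) and without JNJ replicate 3 (edgeR adjusted p = 0.172), which left 1 gene lower.

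Of 12 tested genes of cleavage and cross-linking, none rose and 1 (8.33%) fell by edgeR, with a median of -0.13, against 20.0% higher and 17.1% lower among all tested genes. At an unadjusted p under 0.05 there were 2 higher and 4 lower, and DESeq2 called 0 higher and 2 lower. PXDN, the peroxidase that cross-links type IV collagen, fell by 0.34 (edgeR adjusted p = 0.00831), but not past the threshold without DMSO replicate 2 (edgeR adjusted p = 0.0644). TGM2, a transglutaminase, had a log2 fold change of -0.13 (edgeR adjusted p = 0.06), BMP1, which removes the ends of procollagens, 0.11 (edgeR adjusted p = 0.0619), and LOX, a lysyl oxidase, -0.24 (edgeR adjusted p = 0.0728). TGM2 and LOX passed as lower without JNJ replicate 1, where the list had 3 lower.

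Of 8 tested collagen receptors, 4 rose and 2 fell, with a median of 0.18, beside 20.0% and 17.1% of all tested genes. MRC2, an endocytic receptor that takes up collagen fragments, rose to 85.3, 83.7 and 79.6 CPM with JNJ, against 47.3, 49.5 and 45.6 CPM with DMSO (log2 fold change 0.80, SE 0.05, edgeR adjusted p = 1.07e-11). Among integrins, the collagen-binding integrin chains ITGA1 (0.75, edgeR adjusted p = 2.37e-10), ITGA2 (0.46, edgeR adjusted p = 5.10e-08) and, near 1 CPM, ITGA10 (1.53, edgeR adjusted p = 1.04e-04) rose. The chain they all pair with, ITGB1 (-0.20, edgeR adjusted p = 0.0052), and the receptor kinase DDR1 (-0.12, edgeR adjusted p = 0.034) fell, and both are named after their values were seen. The groups overlapped for ITGB1, with JNJ replicate 1 (1129 CPM) above DMSO replicate 1 (1125 CPM), and were separate for DDR1. Only 1 receptor was called lower with the replicate number as a block, and the same number was called without DMSO replicate 1 or 2 or JNJ replicate 3.

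Of 9 tested genes of collagen breakdown, 4 (44.4%) rose and 2 (22.2%) fell, with a median of 0.08, beside 20.0% higher and 17.1% lower over all tested genes. The collagenase MMP1 rose by 0.25 (edgeR adjusted p = 4.27e-04), the protease CTSK by 0.52 (edgeR adjusted p = 3.74e-05), and the inhibitor TIMP2 fell by 0.32 (edgeR adjusted p = 2.81e-06). The inhibitor TIMP1 was called higher (0.29, edgeR adjusted p = 4.74e-04), opposite to TIMP2. The protease CTSL was called lower (-0.21, edgeR adjusted p = 0.00385), opposite to the other called proteases. TIMP1 and CTSL are named after their values were seen. MMP9, a gelatinase, rose by 2.73 (edgeR adjusted p = 1.24e-06) at low levels of 1.83, 2.14 and 2.42 CPM with JNJ against 0.570, 0.254 and 0.128 CPM with DMSO. With 1 library left out the log2 fold change of MMP9 ranged from 2.33 to 3.46 (without DMSO replicate 1). With upper-quartile scaling 4 genes of this list were lower.

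Among 15 tested matrix partners of the member collagens, 5 (33.3%) rose and 4 (26.7%) fell, with a median of -0.02, where 20.0% of all tested genes rose and 17.1% fell. HSPG2, the perlecan of basement membranes, rose to 633 ± 53.5 CPM with JNJ, against 461 ± 7.83 CPM with DMSO (log2 fold change 0.46, SE 0.05, edgeR adjusted p = 1.67e-07; SD, n = 3 each), and TNXB, a tenascin that organises fibrils, rose by 0.95 (edgeR adjusted p = 6.75e-11). TNC, a tenascin of remodelled stroma, fell by 0.49 (edgeR adjusted p = 1.05e-07) and THBS1, a matricellular protein, by 0.27 (edgeR adjusted p = 5.20e-04). The hemidesmosome partners of COL17A1 did not rise with it: ITGA6 (-0.18, edgeR adjusted p = 0.00186) and CD151 (-0.16, edgeR adjusted p = 0.01) fell, and ITGB4 (-0.04), PLEC (-0.05) and DST (0.04) did not pass. These 5 were singled out after their values were seen, as were the laminin chain genes LAMA3 (0.22, edgeR adjusted p = 6.95e-04), which rose, and LAMB3 (-0.11, edgeR adjusted p = 0.149), which did not pass.

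**Figure D4:**
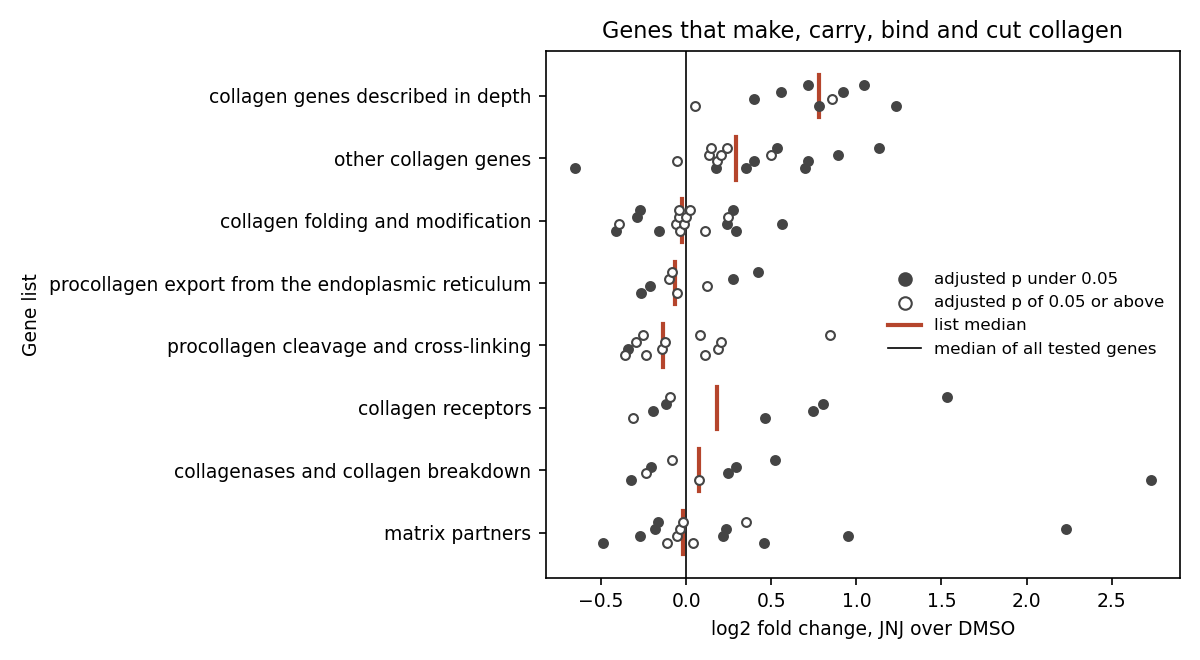
log2 fold change of JNJ over DMSO for the tested genes of each list, filled where the adjusted p was under 0.05 and open otherwise, with the list median as a red bar and the median of all tested genes as a black line. The members (median 0.78 over the 9 tested) and the other collagen genes (0.30) lie to the right, and the medians of the other lists lie between -0.13 and 0.18.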

How the data were processed

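The deposited values, made by the authors, are raw read counts of 6 libraries in a single table, without normalization. Per the submitters' processing notes the tools were STAR 2.7.9a, featureCounts 1.6.0, limma, edgeR and FastQC 0.11.8, with no role stated; the notes also name the mouse build GRCm39, although all 60649 rows carry human Ensembl identifiers. For strand setting and annotation the sources used here give nothing. After 44 repeated rows without counts were dropped, 60605 genes remained, of which 60463 had a symbol in the reference table. Lengths and positions came from GENCODE release 29.

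Genes kept by filterByExpr (minimum count 10, total 15) were TMM-scaled and compared with edgeR 4.0.16 (glmQLFit, glmQLFTest, group only), with Benjamini-Hochberg adjustment over 17371 genes at 0.05. CPM uses TMM-scaled sizes. The SE is the log2 fold change over the square root of F. Chain ratios used counts plus 0.5. Alternatives were DESeq2 1.42.0, limma 3.58.1 (voom, trend), other scalings and filters, the replicate block, a fold of 1.5, and left-out libraries.

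All 10 members are named, as are all tested other collagen genes and the 4 genes with the smallest p of each other list. Members and lists were chosen with earlier results of these data known. Some genes are not reported here.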

Additional observations from a re-analysis of the deposited data

How the results depend on the processing

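The 7 called collagen genes were 7 in every alternative except the test against a fold of 1.5, which left 3 (COL6A1, COL7A1 and COL1A1) against 326 higher and 128 lower genes in all. That test left 1 higher and 0 lower among the other collagen genes, and 0 and 0 for folding, export and cleavage. It left 3 higher and 0 lower for receptors, 1 higher and 0 lower for breakdown, and 2 higher and 0 lower for matrix partners. With upper-quartile scaling, which moved the median of all genes to -0.06, all genes were 2800 higher and 4099 lower, against 3478 and 2970, and there were 2 lower other collagen genes, 4 lower in cleavage and 4 lower in breakdown. Cleavage had 2 lower with DESeq2, limma-voom, RLE scaling and no filter on low counts. With 1 library left out, lower calls numbered 1 to 2 in export, 0 to 3 in cleavage and 1 to 3 in receptors. COL12A1 turned to -0.0096 with upper-quartile scaling. With 1 library left out its log2 fold change ranged from -0.048 (without JNJ replicate 1) to 0.14, and it was -0.02 without DMSO replicate 1. That of COL9A3 ranged from -0.028 (without JNJ replicate 2) to 0.50, that of COL24A1 from -0.072 (without DMSO replicate 1) to 0.36 and that of COL6A3 from -0.19 (without DMSO replicate 2) to 0.45. The log2 ratio of COL4A1 over COL4A2 turned to -0.73 without DMSO replicate 3. In the alternatives that left out a library, that ratio ranged from -0.73 to 1.13 and the log2 ratio of COL6A1 over COL6A2 from 0.64 to 0.70. With longest transcripts the level per kilobase, JNJ and then DMSO, was 241 and 164 CPM for COL6A2, 161 and 68.3 for COL6A1, 104 and 50.4 for COL7A1, 104 and 78.6 for COL17A1, 9.06 and 5.27 for COL1A1, 0.430 and 0.226 for COL4A2 and 0.093 and 0.053 for COL4A1. The replicate numbers did not pair the samples (correlations of deviations -0.018, -0.014 and 0.002). With the replicate block the collagen calls stayed 7 higher and 0 lower, all genes 3311 higher and 2821 lower, and the receptors had 1 lower. The log2 ratios differed by 0.68 for COL6A1 over COL6A2 and 0.48 for COL4A1 over COL4A2, as without the block. A block with 1 library of each group per number cannot change a difference of group means. The causes were not tested. Depth limits COL4A1 and COL5A1, with at most 21 counts in any library.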
